A study of Mus musculus with 4 samples.

Results

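Collagen and extracellular matrix genes were followed through the cells of subcutaneous Lewis lung carcinoma (LLC) tumors. They were a set of 40 genes, chosen by name with earlier results of these data known and matched by symbol in each library. Of the 40 members, 39 were listed in all 4 libraries, among the 18596 genes that these libraries shared. Fmod, which encodes the proteoglycan fibromodulin, was not in the gene list of RT2 and had 0 UMIs in every gated population of the other 3 libraries. LLC is a lung carcinoma line that grows in C57BL/6 mice. Tumors were grown under the skin of C57/BL6N mice aged 6 to 8 weeks, to a mean volume of 100 mm3 before treatment. The RT group received hypofractionated radiotherapy, 24 Gy in 3 fractions of 8 Gy on days 7 to 9 after the cells were injected, and the NT group was mock treated. Tumors were taken 72 hours later and profiled by single-cell RNA sequencing with a microwell 3′ kit. NT was 1 library that pooled 3 tumors, and RT1, RT2 and RT3 were replicate libraries of 1 irradiated tumor each. Spread between NT tumors was therefore not measured, and treatment and pooling cannot be told apart.

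The extracellular matrix is the protein and sugar scaffold around cells. Fibrillar collagens give tissue its tensile strength, whereas collagen IV, laminins, nidogens and perlecan form the thin basement membrane on which endothelial and epithelial cells rest. Elastic fibers, small leucine-rich proteoglycans and matricellular proteins tune how fibrils assemble and how cells attach, and enzymes of the lysyl oxidase family crosslink collagen and elastin. In solid tumors fibroblasts are the classic source of interstitial collagen, and vessels of basement membrane.

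Promoter windows of 4 members are shown because Col4a1 and Col4a2 lie head to head and had different ratios between the libraries, and because Col1a2 and Col3a1 differed in which cells held their transcripts. RefSeq windows of GRCm38.p6, from 250 bases before to 50 after the transcript start, were found for 26 of the 40 members. The submitters' notes name GRCm39, so these positions belong to the RefSeq table and not to the counts. Capitals mark 3 promoter motifs on either strand, namely the CCAAT box, the TATA box written as TATAAA, and the GC box written as GGGCGG.
Col1a2, chr6:4505368-4505667, plus strand: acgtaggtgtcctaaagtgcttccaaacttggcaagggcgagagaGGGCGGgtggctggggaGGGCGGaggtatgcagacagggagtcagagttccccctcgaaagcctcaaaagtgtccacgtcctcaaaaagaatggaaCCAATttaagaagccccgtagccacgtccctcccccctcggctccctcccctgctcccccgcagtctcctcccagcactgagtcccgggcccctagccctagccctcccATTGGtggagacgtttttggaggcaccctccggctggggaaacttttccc
Col3a1, chr1:45311288-45311587, plus strand: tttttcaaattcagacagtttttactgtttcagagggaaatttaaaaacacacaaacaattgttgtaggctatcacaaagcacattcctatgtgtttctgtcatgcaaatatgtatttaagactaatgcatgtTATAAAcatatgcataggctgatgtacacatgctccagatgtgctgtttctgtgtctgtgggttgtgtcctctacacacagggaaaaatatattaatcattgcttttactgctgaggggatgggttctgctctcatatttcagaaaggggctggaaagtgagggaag
Col4a1, chr8:11312777-11313076, minus strand: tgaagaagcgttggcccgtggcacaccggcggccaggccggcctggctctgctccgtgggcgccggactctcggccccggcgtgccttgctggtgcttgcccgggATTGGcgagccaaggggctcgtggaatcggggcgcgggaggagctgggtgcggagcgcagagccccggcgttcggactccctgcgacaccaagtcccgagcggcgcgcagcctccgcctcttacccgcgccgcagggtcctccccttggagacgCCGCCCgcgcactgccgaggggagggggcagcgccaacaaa
Col4a2, chr8:11312555-11312854, plus strand: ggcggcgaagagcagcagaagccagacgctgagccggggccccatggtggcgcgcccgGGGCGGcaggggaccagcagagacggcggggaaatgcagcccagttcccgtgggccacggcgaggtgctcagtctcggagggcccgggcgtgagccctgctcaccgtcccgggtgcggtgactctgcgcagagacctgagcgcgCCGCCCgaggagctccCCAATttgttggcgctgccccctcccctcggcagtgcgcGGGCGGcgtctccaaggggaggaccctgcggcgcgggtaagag
The starts of Col4a1 and Col4a2 lay 21 bases apart on opposite strands, and their windows shared 78 bases. The Col4a1 window held 1 CCAAT and 1 GGGCGG, and the Col4a2 window 1 CCAAT and 3 GGGCGG. The Col1a2 window held 2 of each, and the Col3a1 window held 1 TATAAA and neither of the others. GC content was 61% for Col1a2, 37.7% for Col3a1, 74% for Col4a1 and 73.7% for Col4a2. Among all 32544 windows of the table, 37.4% held CCAAT, 13.6% TATAAA and 35.9% GGGCGG. A match describes the letters only.

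The libraries held 69667759, 78585759, 108699844 and 85660188 UMIs (unique molecular identifiers, each read as 1 captured transcript) for NT, RT1, RT2 and RT3. All values below follow this order of libraries. After barcodes under 200 genes or over 20% mitochondrial UMIs were removed, 9976, 15029, 14993 and 15060 cells remained, with median depths of 5709, 3865, 5200 and 4158 UMIs. Any pair of libraries shared between 182 and 277 barcodes, at most 1.85% of the smaller one. Levels are in CPM, the UMIs of a gene per 1e6 UMIs summed over the cells of a population.

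Tumor cells were those with at least 3 UMIs of Rhox5, a homeobox gene that marks the LLC cells, and none of the leukocyte genes Ptprc and Csf1r. They numbered 6114, 6660, 6372 and 7511, with median depths of 8295, 6612, 9489 and 7141 UMIs. Leukocytes had at least 2 UMIs of Ptprc and Csf1r, fewer than 3 of Rhox5 and no other marker set. They numbered 721, 3067, 3320 and 1422 and serve below as a reference population, in which free RNA and expression of a member cannot be told apart. Fibroblasts and endothelial cells were gated by at least 3 UMIs from at least 2 of 8 and 12 marker genes, none of them a member, with fewer than 3 Rhox5 UMIs and none of the leukocyte genes. The fibroblast gate gave 216, 358, 247 and 508 cells and the endothelial gate 36, 84, 112 and 30.

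The fibroblast gate went against its label. Hmga2, a chromatin gene of the LLC cells, stood at 418, 416, 329 and 411 CPM in it, against 449, 485, 437 and 517 CPM in tumor cells. The gate marker Dpt (dermatopontin) was itself at 321, 612, 620.3 and 702 CPM in tumor cells, and 28.8%, 35.8%, 37.9% and 38.4% of tumor cells met the fibroblast marker count. The endothelial gate held mural cell RNA, with 6 markers led by Rgs5 summing to 2233, 1622, 193 and 2805 CPM. A stricter pair of gates, chosen after these values were seen, allowed at most 1 UMI of Rhox5, Hmga2 and Krt8 together and at most 1 of mural genes. Its marker lists also differed. The fibroblast list added Serping1 and Cxcl12 and was without Scara5 and Tcf21, and the endothelial list left out Egfl7, Plvap and Esam. Stricter fibroblasts could have at most 1 UMI of the endothelial genes. The pair gave 19, 86, 89 and 156 fibroblasts and 24, 57, 89 and 24 endothelial cells. Of these fibroblasts 19, 72, 73 and 122 were also in the first gate, so the stricter gate was not a subset of it in RT. In the stricter fibroblasts Hmga2 was at 24.2, 60.1, 23.6 and 31 CPM, and in the stricter endothelial cells the mural markers summed to 0, 40.2, 15.9 and 26.2 CPM, values that the gate itself limits. Of markers the stricter gates did not use, smooth muscle markers led by Acta2 summed to 567, 295, 80.5 and 211 CPM in the first endothelial gate and 8.27, 11.5, 13.7 and 0 CPM in the stricter one. Both gates are reported.

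The 19 stricter fibroblasts of NT were few and uneven. Of their Col1a1 and Col1a2 UMIs, 82% came from 3 cells, against 26.7%, 16.4% and 15.9% from the top 3 cells of the RT libraries. Of the 19 cells, 5 carried 10 or more of these UMIs. Smooth muscle markers led by Acta2 summed to 363, 23.1, 10.1 and 15.5 CPM in the stricter fibroblasts, and adipocyte markers led by Adipoq to 0, 309.6, 13.5 and 323 CPM. The part of these cells in the fibroblast values was not tested.

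Most matrix transcripts were in the tumor cells, as were most transcripts of any kind. The tumor gate held 83.4%, 77.3%, 74.8% and 74.2% of all members' UMIs and 83.7%, 68.4%, 68% and 77.4% of the UMIs of all genes. Of the members' UMIs the fibroblast gate held 5.11%, 5.85%, 7.33% and 11.3%, against 1.56%, 1.79%, 1.16% and 2.65% over all genes, and the endothelial gate 1.61%, 1.93%, 2.11% and 0.649%, against 0.288%, 0.38%, 0.491% and 0.123%. Ungated barcodes held 9.67%, 14%, 15% and 13.4%. Per UMI of a population the order was another one, as the members summed to 4118, 5586, 5026 and 4782 CPM in tumor cells but to 98922, 56565, 82228 and 75040 CPM in the stricter fibroblasts. In stricter endothelial cells they summed to 19720, 21772, 20129 and 22401 CPM, and in leukocytes to 179, 359, 233 and 481 CPM. These sums did not overlap between the populations. In the first gates they summed to 13580, 16187, 28786 and 21224 CPM in fibroblasts and 23175, 25169, 19609 and 26374 CPM in endothelial cells, ranges that did overlap.

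**Figure D1:**
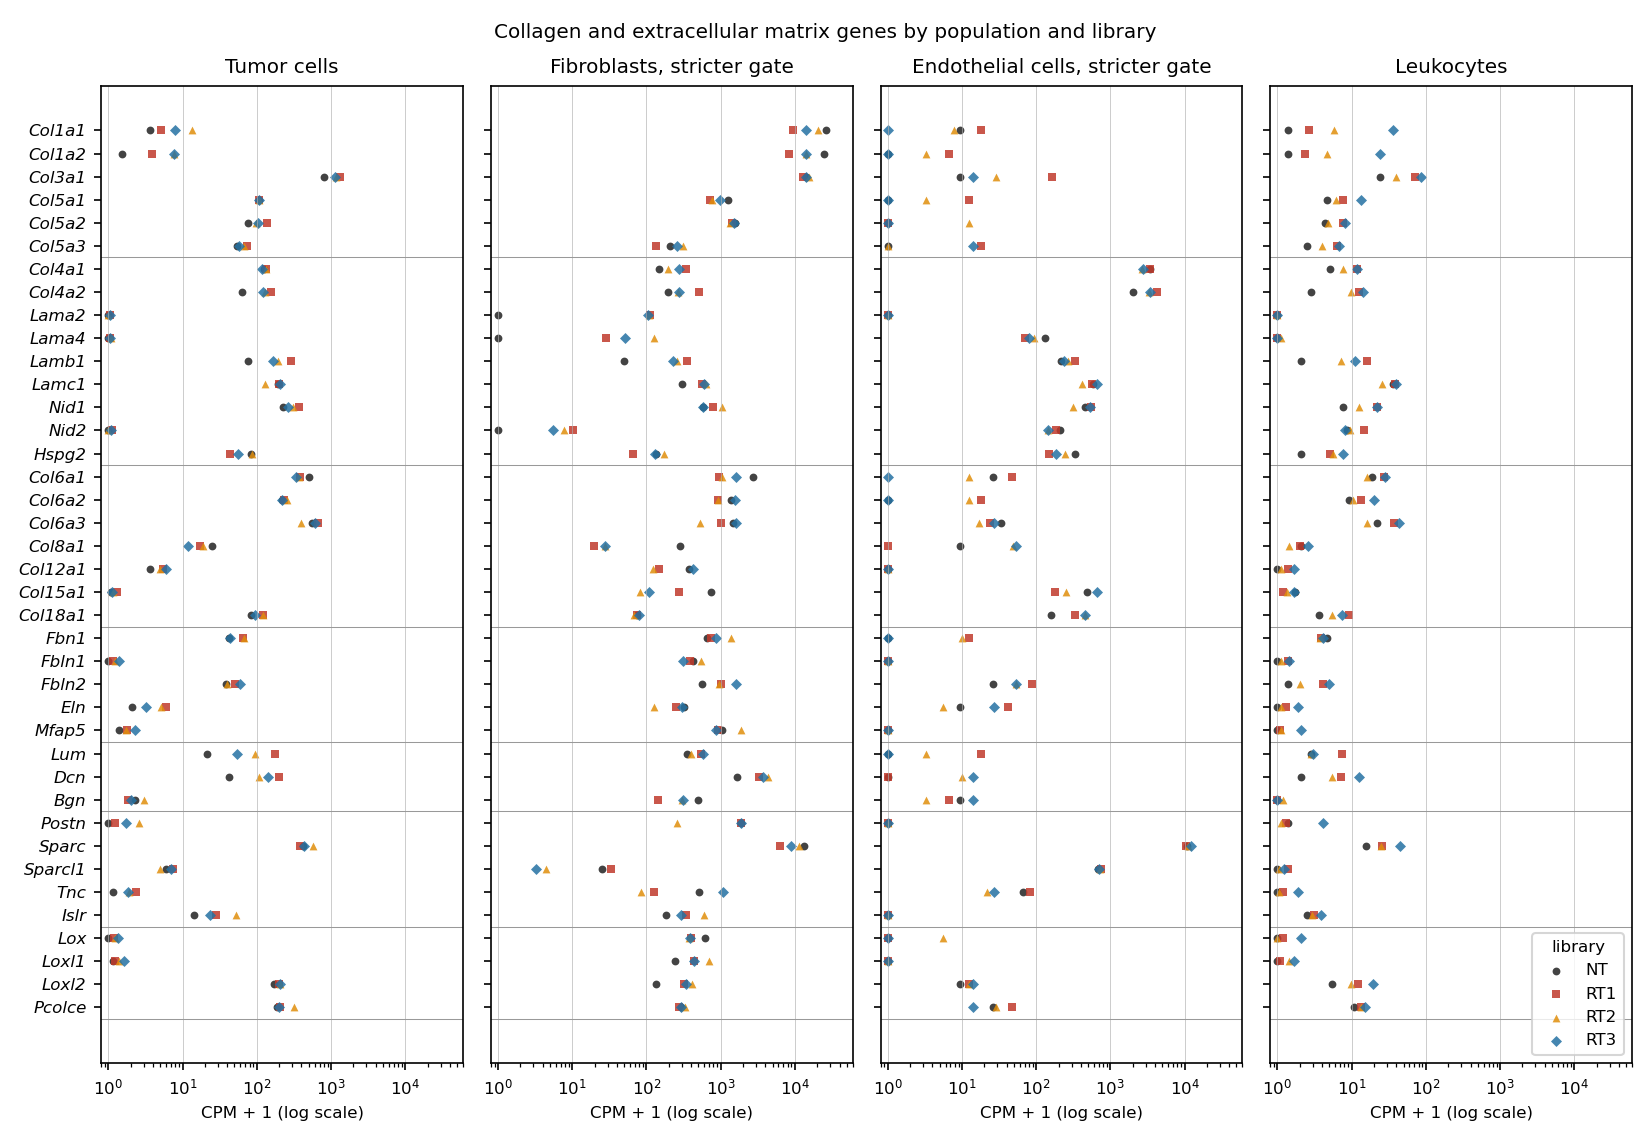
Level of each of the 39 members (CPM + 1, log axis) in tumor cells, in fibroblasts and endothelial cells of the stricter gates and in leukocytes, with 1 point per library. Col1a1 and Col1a2 were at most 12.3 CPM in tumor cells and at least 8233 CPM in fibroblasts, while Col3a1 was at 795 CPM or more in both.

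The fibrillar collagens split by cell type. Col1a1 and Col1a2 encode the chains of collagen I, the main protein of tendon, bone and scar. Col1a1 stood at 2.59, 4.06, 12.3 and 6.87 CPM in tumor cells and at 26160, 9559, 20378 and 13946 CPM in the stricter fibroblasts. The tumor gate held 5.06%, 6.87%, 7.15% and 4.31% of all Col1a1 UMIs, and the fibroblast gate 72.9%, 61.6%, 50.9% and 61.9%. Col1a2 stood at 0.517, 2.9, 6.58 and 6.68 CPM in tumor cells and at 24731, 8233, 14319 and 14265 CPM in fibroblasts. Every fibroblast value of both genes lay above every tumor cell value. Col3a1, whose collagen III is laid down with collagen I in soft tissue, was distributed otherwise. It was at 795, 1336, 1158 and 1136 CPM in tumor cells, which held 85.4%, 79.1%, 78.6% and 76.8% of its UMIs. In the stricter fibroblasts it was at 14000, 13047, 15405 and 14269 CPM, a narrow range over the libraries.

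Sums per library and population were compared by edgeR's quasi-likelihood test with the library as a block, adjusted over all genes. In the fibroblast gate 30 of 39 members were higher than in tumor cells, while 16.4% of all 11130 genes tested were higher. With the stricter gates 35 of 38 were higher, against 18.6% of all genes. By edgeR 0 members were lower in either fit, where 17.9% of all genes were lower in each. At an unadjusted p under 0.05 also 0 were lower, against 2494 of 11130 and 2398 of 10578 genes. By DESeq2 0 members were lower in the first fit, against 13.9% of all genes. The median member difference was 2.19 on the log2 scale (all genes -0.01) and 3.9 with the stricter gates (all genes -0.09). Col1a1 differed by 8.78 ± 0.86 (log2 ± SE, edgeR adjusted p = 8.89e-07) and by 11.67 ± 0.72 with the stricter gates. Col3a1 differed by 1.96 ± 0.28 (edgeR adjusted p = 6.15e-05) and by 3.85 ± 0.30. Col5a2, a chain of the collagen V that nucleates fibrils, differed by 2.05 ± 0.24 and 3.94 ± 0.19. With the stricter gates all 6 fibrillar collagens were higher in fibroblasts.

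Elastic fiber and crosslinking genes were higher per UMI in the stricter fibroblasts than in tumor cells. Lox, the lysyl oxidase that starts collagen crosslinks, had 0 UMIs in the NT tumor cells, where 3 UMIs would be 0.0517 CPM, and 0.188, 0.216 and 0.334 CPM in RT. It was at 606, 397, 374 and 381 CPM in the stricter fibroblasts (11.16 ± 0.38, edgeR adjusted p = 5.42e-15). Loxl1, which crosslinks elastin, was higher by 10.44 ± 0.25, and Fbln1, a fibulin of elastic fibers, by 11.02 ± 0.37. Fbn1, the fibrillin of microfibrils, was at 41.1, 64.1, 65.2 and 42.5 CPM in tumor cells and 654, 739, 1369 and 868 CPM in fibroblasts, higher by 4.21 ± 0.19. All 5 elastic fiber genes were higher in fibroblasts under both gates. Of the 4 crosslinking and processing enzymes 2 were higher under the first gate and 4 under the stricter one. Loxl2, another lysyl oxidase, was also in tumor cells at 172, 197, 207 and 204 CPM, as was Pcolce, an enhancer of procollagen cleavage, at 184, 206, 311 and 199.8 CPM.

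The 3 proteoglycans tested and 4 of 5 matricellular genes were higher in the stricter fibroblasts than in tumor cells. Dcn (decorin) and Lum (lumican) coat collagen fibrils. Dcn differed between fibroblasts and tumor cells by 2.87 ± 0.26 (edgeR adjusted p = 3.01e-07) and by 4.97 ± 0.25 with the stricter gates, and Lum by 1.34 ± 0.16 and 2.81 ± 0.28. Sparc, a calcium-binding matricellular protein, was at 419, 381, 564 and 435 CPM in tumor cells and 13189, 6242, 11497 and 8943 CPM in the stricter fibroblasts, higher by 4.57 ± 0.24. Postn (periostin) was at 1901, 1867, 256 and 1865 CPM in the stricter fibroblasts, with RT2 far below the other libraries. It differed from tumor cells by 8.08 ± 0.67 and 11.13 ± 0.86. The collagen VI chain Col6a3, part of a beaded filament network, differed less, by 0.80 ± 0.27 (edgeR adjusted p = 0.0277) and 1.06 ± 0.17. Col15a1, a collagen of basement membrane zones, differed by 7.45 ± 0.44 and 10.47 ± 0.53, and Lamc1, the laminin gamma chain, by 0.74 ± 0.14 and 1.73 ± 0.19. The 3 members that did not pass with the stricter gates were Lamb1, Col18a1 and Sparcl1.

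Basement membrane genes were higher per UMI in endothelial than in tumor cells, although tumor cells held 80.5%, 71.9%, 73.6% and 78.8% of all Col4a1 UMIs. All 9 of that role were higher than in tumor cells in the endothelial gate, and all 8 tested were higher with the stricter gate. Of these 8, 7 were also higher in the stricter fibroblasts than in tumor cells, and 3 were higher and 1 lower in endothelial cells than in fibroblasts. Col4a1 was at 123, 133, 132 and 117 CPM in tumor cells and 3458, 3433, 2667 and 2769 CPM in stricter endothelial cells, a difference of 4.69 ± 0.20 (edgeR adjusted p = 1.15e-13). Col4a2, its partner in the collagen IV trimer, differed by 4.92 ± 0.19. Nid2, a nidogen that ties laminin to collagen IV, was at 207, 184, 141 and 144 CPM in endothelial cells and had at most 7 UMIs in the tumor cells of any library. Lama4, a laminin alpha chain of vessels, differed by 10.98 ± 0.63, and Col15a1 by 11.15 ± 0.51. These fitted values of genes near 0 in tumor cells depend on the prior count. Col18a1, the source of endostatin, differed by 1.83 ± 0.20. Sparc reached 10753, 10443, 10972 and 12244 CPM, and its relative Sparcl1 678, 736, 718 and 696 CPM, and both varied little between libraries. They differed from tumor cells by 4.72 ± 0.24 and 7.19 ± 0.21.

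Over all members, 20 of 39 were higher in the endothelial gate than in tumor cells and 8 lower, where 22.1% of all genes were higher and 27.6% lower. With the stricter gates 14 of 38 were higher and 13 lower, against 21.1% and 24% of all genes. Col3a1 was lower in endothelial cells by both gates, at -3.02 ± 0.35 and -4.29 ± 0.41. Col5a2 and Col5a3 were at 0.24 ± 0.33 and 0.05 ± 0.47 in the first gate, which held mural RNA, and at -3.92 ± 0.48 and -3.57 ± 0.73 in the stricter one. Against the fibroblasts, endothelial cells were higher in 12 of 39 members and lower in 20 by the first gates, where 19.2% and 20.9% of all genes were higher and lower. By the stricter gates they were higher in 5 of 38 and lower in 26, against 11.6% and 12.5% of all genes. The 5 were Col4a1, Col4a2, Nid2, Col18a1 and Sparcl1, and Col4a1 differed by 3.63 ± 0.21 (edgeR adjusted p = 1.11e-10). Col3a1 was at -8.14 ± 0.42. Sparc was higher in the first endothelial gate (2.48 ± 0.24) and differed by 0.15 ± 0.21 (edgeR adjusted p = 0.677) with the stricter gates. Nid1, the other nidogen, and Tnc, the matricellular tenascin C, had another sign in each pair of gates, from 0.22 ± 0.23 to -0.77 ± 0.25 and from 1.23 ± 0.68 to -2.85 ± 0.71.

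Tumor cells were compared with leukocytes as the reference population. Of 39 members 27 were higher in tumor cells and 1 lower, against 39.9% and 37.7% of all genes. On library totals without TMM scaling 6212 of all genes were higher and 2951 lower, against 4439 and 4201 with it, and the median of all genes was 0.51 rather than 0.04, while the members gave 28 higher and 1 lower. Col3a1 was higher by 3.95 ± 0.31 (edgeR adjusted p = 3.35e-09), Col6a3 by 3.89 ± 0.30, Sparc by 3.62 ± 0.26, Lum by 4.42 ± 0.22 and Dcn by 4.04 ± 0.32. Nid2 was the member that was lower, at -7.88 ± 0.38, with 7.76, 13.7, 8.52 and 7.08 CPM in leukocytes. The number lower was 4 with at least 10 Rhox5 UMIs (Nid2, Col15a1, Col1a2 and Postn) and 4 without tumor cells that met another marker count (Nid2, Col15a1, Col1a1 and Col1a2). It was 6 with the stricter gates and tumor cells without a UMI of 7 fibroblast genes, where these 5 genes and Fbln1 were lower than in leukocytes. Of all genes 38.1%, 38.4% and 37.2% were lower in these fits. Col1a1 differed by -0.76 ± 0.79 (edgeR adjusted p = 0.389), and its trace in tumor cells was not distinguishable from that in leukocytes by this test. Col1a2, Fbln1, Mfap5, Postn, Tnc, Lox, Loxl1, Lama2, Lama4 and Col15a1 did not pass the test either.

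Irradiated and untreated libraries were set side by side within each population. With 1 NT library there is no test, so a member was called up or down when all 3 RT libraries lay at least 1.5-fold above or below NT, and was read only where its mean level gave 10 or more UMIs in the smallest sum. In tumor cells 13 of 34 members read were up and 0 down, and 8.56% of all genes read were up. The filter reads the mean level, and 3 of the 13, Fbln1 and Postn with 0 UMIs in NT and Tnc with 8, passed it only through RT. Of members with 10 or more UMIs in NT itself, a filter added after seeing the data, 10 of 30 were up, against 6.61% of all genes. All 3 RT libraries lay above NT for 23 members and below it for 3, against 4127 and 4119 of 13112 genes. The median member ratio was 0.45 on the log2 scale and that of all genes -0.02. Among the 13, Col1a1, Col1a2, Fbln1, Mfap5, Postn and Tnc were those that did not pass the test against leukocytes, in which Col1a1 was at 0.37, 1.68, 4.8 and 35.6 CPM. The other 7 were Lum, Dcn, Islr, Eln, Col12a1, Lamb1 and Col4a2.

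Lum and Dcn had the widest mean ratios among these 7. Lum was at 20.4 CPM in NT tumor cells (95% Poisson interval 19.2 to 21.5) and at 174, 93.4 and 53.2 CPM in RT, a mean ratio of 4.68-fold (log2 2.23 ± 0.85 SD, n = 3). Dcn was at 41 CPM in NT (39.4 to 42.7) and at 198, 105 and 139.7 CPM in RT, a ratio of 3.48-fold (1.80 ± 0.46). All RT values of both genes were above NT, with RT1 highest. In leukocytes Lum stood at 1.85, 6.33, 1.82 and 1.99 CPM and Dcn at 1.11, 6.13, 4.44 and 11.7 CPM. Lum and Dcn together had 19.8, 53.5, 10.5 and 14.2 UMIs per UMI of Col1a1 and Col1a2 in tumor cells but 0.039, 0.214, 0.137 and 0.154 in the stricter fibroblasts. In tumor cells with no UMI of Serping1, Pi16, Cygb, Clec3b, Dpep1, Abca8a and Cxcl12, an alternative chosen after seeing the data that left out 9, 48, 97 and 76 cells and did not use Dpt, the log2 ratios were 2.23 for Lum and 1.79 for Dcn, while those of Col1a1 and Col1a2 were 0.21 and 1.37, against 1.43 and 3.24 over all tumor cells. With at least 10 UMIs of Rhox5 those of Lum and Dcn were 2.74 and 2.14, and those of Col1a1 and Col1a2 1.07 and 1.63. Without tumor cells that met another marker count the ratios of Lum and Dcn were 2.14 and 1.57. Those of Col1a1 and Col1a2 were 1.66 and 2.24 there, so Col1a1 did not fall in each alternative.

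Islr, a secreted leucine-rich protein of mesenchymal cells, was at 13.3 CPM in NT and 27.4, 51.3 and 22.2 CPM in RT (log2 1.25 ± 0.63 SD). Eln, the gene of elastin, was at 1.07 CPM in NT and 4.93, 4.06 and 2.23 CPM in RT (1.71 ± 0.59), and Col12a1, a collagen on fibril surfaces, at 2.59 CPM in NT and 4.46, 4 and 5 CPM in RT (0.78 ± 0.16). These levels were low but above those of leukocytes in the test. Col3a1 lay above NT in every RT library with a ratio of 0.60 ± 0.13, without reaching 1.5-fold in each. Col5a1, of the fibril-nucleating collagen V, was at 108, 105, 106 and 107 CPM. Col6a1, of the collagen VI network, lay below NT in each RT library (504, 385, 374 and 337 CPM, log2 -0.47 ± 0.10), also short of the rule. Col8a1, a short-chain collagen, was at 24, 16.3, 17.9 and 10.9 CPM (-0.70 ± 0.38). In the tumor gate 6 leukocyte markers led by Lyz2 summed to 42.3, 119, 132 and 101 CPM and 11 fibroblast markers led by Ly6a to 767, 1224, 1818 and 1339 CPM, and the part of such RNA in these ratios was not tested.

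**Figure D2:**
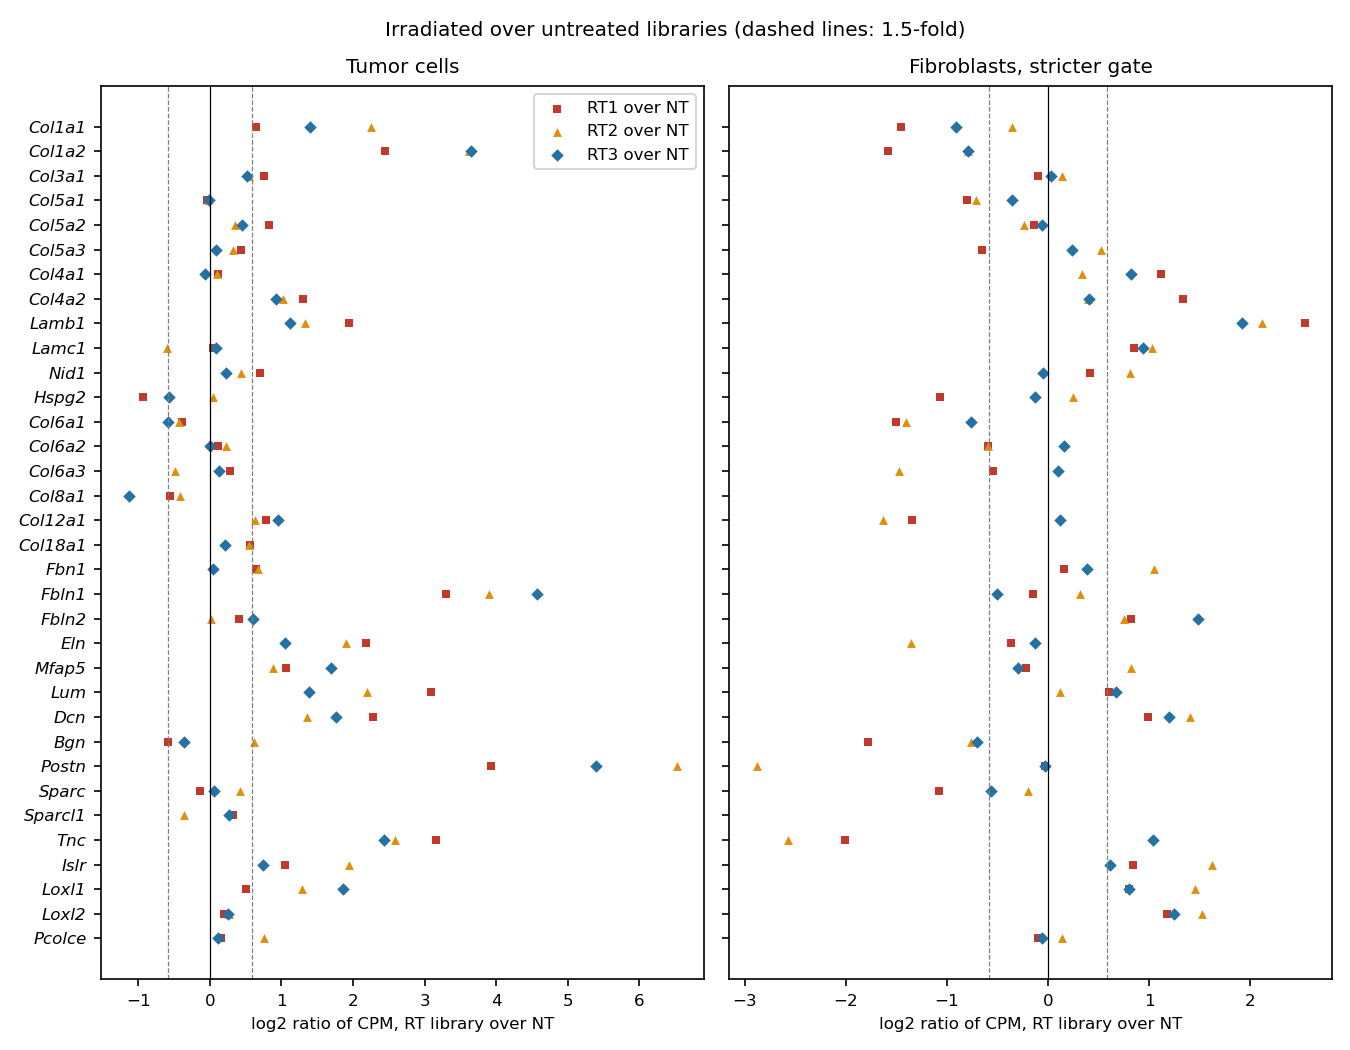
Log2 ratio of each RT library over NT in tumor cells and in the stricter fibroblasts, for members read there (1 UMI was added to each sum, so the tumor cell values of Postn and Fbln1, at 0 UMIs in NT, depend on it). In tumor cells Lum, Dcn, Lamb1 and Col4a2 were right of the 1.5-fold line in all 3 libraries, and the fibroblast ratios lay on both sides of 0.

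Lamb1 and Col4a2, both of the basement membrane, passed the rule in tumor cells and, on few NT UMIs in places, in other populations. Lamb1, a laminin beta chain, was at 75.8, 290.3, 189.6 and 165 CPM in tumor cells (log2 1.46 ± 0.42) and at 48.4, 346, 259.6 and 226 CPM in the stricter fibroblasts (2.19 ± 0.32, on 4 UMIs in NT). In leukocytes it was at 1.11, 15, 6.2 and 10.2 CPM, on 3 UMIs in NT. Lamc1, its partner in the laminin trimer, was at 194, 200.2, 129 and 206 CPM in tumor cells, with RT values on both sides of NT. Col4a2 was at 62.6 CPM in NT and 154, 126 and 119 CPM in RT in tumor cells (1.08 ± 0.20). Col4a1 was at 123 CPM in NT and 133, 132 and 117 CPM in RT (0.05 ± 0.10), so the RT values lay around NT. In the stricter endothelial cells Col4a2 was at 2043 CPM in NT and 4209, 3319 and 3451 CPM in RT (0.83 ± 0.18), whereas Col4a1 was at 3458 CPM in NT and 3433, 2667 and 2769 CPM in RT (-0.23 ± 0.20). Col4a2 was up in the tumor, fibroblast, endothelial and leukocyte gates, on 5 UMIs in the NT leukocytes. Of the 1508 genes read in all 4 gates 14 were up in all 4, or 0.928%, and Col4a2 was the 1 member among them. With 10 or more UMIs in NT of each gate, where Col4a2 was not read in leukocytes, 11 of 1461 genes or 0.753% were up in all 4 and 0 of 9 members. Over the tumor, fibroblast and endothelial gates alone 18 of 1508 genes were up under that filter, or 1.19%, Col4a2 among them.

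The share of Col4a2 in the UMIs of this head-to-head pair differed accordingly. In tumor cells Col4a2 took 33.7% of the pair's 10750 UMIs in NT, and 53.7%, 49% and 50.3% in RT. In the stricter endothelial cells the shares were 37.1% in NT (95% Clopper-Pearson interval 33.5 to 40.9) and 55.1%, 55.4% and 55.5% in RT. The leukocyte share in NT was 31.2% of 16 UMIs, and 51.8%, 57.2% and 54.6% in RT. In ungated barcodes it was 31.4%, 55.4%, 49.4% and 49.9%. The stricter fibroblasts were the exception, at 57.1% in NT, which rested on 28 UMIs (37.2 to 75.5), and 60.3%, 57.7% and 49.6% in RT. Intervals cover counting error only. The populations of a library share its preparation, so these are 4 libraries and not independent repeats.

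**Figure D3:**
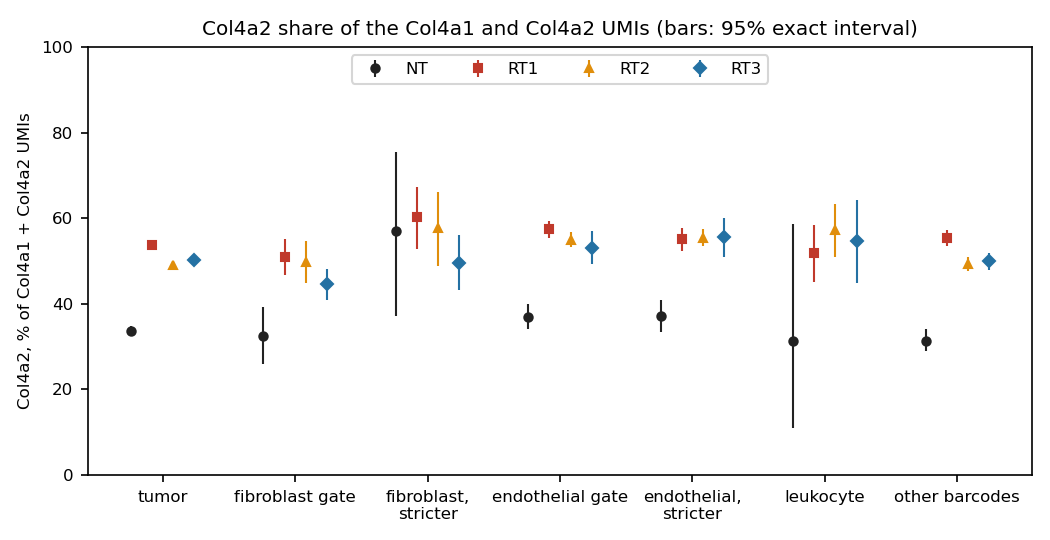
Share of Col4a2 in the summed Col4a1 and Col4a2 UMIs, in percent, by population and library, with 95% Clopper-Pearson intervals. NT lay at 31.2% to 37.1% in every population except the stricter fibroblasts, and the RT libraries lay at 44.6% to 60.3%.

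In the fibroblast gate 14 of 38 members read were up and 1, Col8a1, was down, against 8.39% and 2.16% of all genes. With 10 or more UMIs in NT 12 of 36 were up, against 4.86%. The makeup of this gate differed between the groups, as 11 fibroblast markers summed to 1290, 3612, 8302 and 4364 CPM and 4 tumor markers to 1105, 786, 629 and 911 CPM. These fibroblast markers, led by Ly6a, are not particular to fibroblasts. They summed to 6007, 7582, 6769 and 9123 CPM in the endothelial gate and to 1215, 791, 1403 and 1274 CPM in leukocytes. Of the cells in the fibroblast gate 19 of 216 in NT and 72 of 358, 73 of 247 and 122 of 508 in RT also met the stricter gate. The part of this makeup in the ratios was not tested. The stricter gate is therefore given beside it, where 7 of 33 were up and 5 down, against 14.2% and 9.38% of all genes. With 10 or more UMIs in NT 6 of 32 were up, against 7.11%. Of the 14 members up in the first gate 5 were up in the stricter one. The 7 were Lamb1, Lamc1, Fbln2, Dcn, Islr, Loxl1 and Loxl2. Dcn was at 1635 CPM in NT and 3257, 4346 and 3773 CPM in RT (log2 1.19 ± 0.21), and Loxl2 at 133 CPM in NT and 323, 415 and 341 CPM in RT (1.31 ± 0.19). The RT libraries lay close together for both genes. Fbln2, a fibulin that binds elastin and basement membrane, was at 557 CPM in NT and 1003, 958 and 1584 CPM in RT (1.02 ± 0.40). Lum was at 351, 545, 391 and 576 CPM (0.46 ± 0.30) and was not up in every library.

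The 5 members that were down in the stricter fibroblasts were Col1a2, Col6a1, Col15a1, Bgn and Lox. Col1a2 was at 24731 CPM in NT and 8233, 14319 and 14265 CPM in RT (log2 -1.06 ± 0.46). Col6a1 was at 2713 CPM in NT and 956, 1025 and 1599 CPM in RT (-1.23 ± 0.40), and Bgn (biglycan, a proteoglycan related to decorin) at 496 CPM in NT and 143, 297 and 310.1 CPM in RT (-1.08 ± 0.61). These NT levels rest on the 19 cells described above, 3 of which held most collagen I. Col1a1 was lower in each RT library as well (-0.91 ± 0.55), without reaching 1.5-fold in all. Col3a1 was at 0.02 ± 0.12 and Pcolce at -0.01 ± 0.13. Tnc was at 509, 125, 84.3 and 1063 CPM, so that the RT libraries lay on both sides of NT.

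In the endothelial gate 1 of 21 members read was up, namely Col4a2, against 7.66% of all genes. In the stricter gate Col4a2 and Col18a1 were up among 11 read, against 9.35% of all genes. Col18a1 was at 157 CPM in NT and 328, 451 and 459 CPM in RT (log2 1.33 ± 0.27). Sparc was at 0.06 ± 0.12 and Sparcl1 at 0.07 ± 0.03 on that scale. In leukocytes 13 of 21 members were up, against 6.74% of all genes, at a summed level of at most 481 CPM. Of the 13, 8 had under 10 UMIs in NT, and without such genes 5 of 12 were up, against 5.3% of all genes.

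Nearly all tumor cells carried a member UMI, whereas some members were seen in few of them. Tumor cells with at least 2000 UMIs were thinned to 2000 UMIs each, which left 6050, 6475, 6234 and 7359 cells. The median cell then carried 7, 9, 9 and 8 member UMIs, and 1.16%, 0.819%, 0.786% and 0.788% of cells carried none. The tenth of cells with the most held 24.8%, 27.2%, 24.9% and 25.4% of these UMIs. Of thinned leukocytes 75.9%, 59.8%, 67.6% and 55.8% carried no member UMI. At least 1 UMI of Lum, Dcn, Islr or Fbn1 was seen in 13.8%, 32.8%, 31% and 24.1% of thinned tumor cells, and the tenth of cells with the most held 85%, 66.2%, 64.1% and 72.8% of the UMIs of these 4 genes. Col3a1 was seen in 64.5%, 73.1%, 71.7% and 74.5% of thinned tumor cells and in 3.7%, 10.6%, 6.76% and 13.2% of thinned leukocytes. Lum was seen in 2.48%, 15%, 10.6% and 6.33% of tumor cells and in 0.206%, 1.06%, 0.356% and 0.338% of leukocytes. Dcn was seen in 4.43%, 17.5%, 11.9% and 13.5% of tumor cells and in 0.412%, 1.27%, 0.427% and 1.92% of leukocytes. For both proteoglycans the NT share of tumor cells was the lowest of the 4. Leukocytes had median depths of 2889, 2587, 4019 and 2478 UMIs before thinning.

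Within the tumor gate several members were lower in cells with more Rhox5. In cells with 3 to 5, with 6 to 10 and with more than 10 Rhox5 UMIs, Col3a1 was at 1046, 880.4 and 678 CPM in NT and at 1594, 1511 and 1181 CPM in RT1. In RT2 it was at 1479, 1481 and 1011 CPM and in RT3 at 1375, 1268 and 1003 CPM. Fbn1 was at 68.9, 48.3 and 29.1 CPM over the same bins in NT, and Islr at 24.6, 14.6 and 9.18 CPM. Of 30 members with 10 or more UMIs in the tumor cells of each library, 18 were lowest in the bin above 10 UMIs in all 4 libraries, among them Col3a1, Lum, Fbn1 and Islr, and 2, Col5a3 and Fbln2, were highest there in all 4. In RT1, for example, Col5a3 was at 64.6, 69.9 and 75.5 CPM over the bins. Dcn was lowest there in NT, RT1 and RT2, and in RT3 it was at 157, 132 and 138 CPM. All genes were not counted over these bins, so whether 18 of 30 is particular to the members was not tested. Hmga2, the tumor marker, was at 444, 442 and 454 CPM in NT and rose over the bins in RT, from 463, 373 and 487 to 496, 458 and 529 CPM. Collagen I was lowest in the top bin of each RT library as well. Col1a1 was at 10.6, 5.89 and 1.35 CPM in RT1, at 12.9, 24.5 and 8.56 CPM in RT2 and at 16.2, 8.59 and 3.24 CPM in RT3, and Col1a2 was at 8.12, 4.57 and 0.628 CPM, 8.04, 16 and 3.49 CPM and 22.2, 5.46 and 2.55 CPM. Serping1, a marker of the stricter fibroblast gate, was at 1.53, 2.01 and 0.562 CPM in RT1, 3.83, 3.06 and 1.6 CPM in RT2 and 7.7, 1.04 and 1.53 CPM in RT3. The part of fibroblast RNA in these bins was not tested. The bins also differed in depth, with medians of 5265, 7458 and 12109 UMIs in NT, and the part of depth was not tested.

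Most members took a smaller share of the UMIs in cycling tumor cells. Thinned cells were scored on 10 mitotic genes such as Mki67 and Top2a, and cells at or above the 75th percentile of each library were compared with those at or below the 25th. Ties made the groups unequal, with 25.7%, 28.5%, 26% and 26.5% of cells in the high and 36.6%, 38%, 53.8% and 38.3% in the low group, and a lower limit of 3 UMIs for the high group in RT2 against 6 in NT. Of 30 members tested 25 were lower in cycling cells and 1, Col8a1, was higher, whereas 34.3% of all genes were lower and 28.7% higher. Without the library block 14 of 30 members were lower, against 14% of all genes. The median member difference was -0.71 and that of all genes -0.04. Eln was at -3.19 ± 0.28 (log2 ± SE, edgeR adjusted p = 2.72e-06), Islr at -2.23 ± 0.14, Lum at -2.23 ± 0.19 and Fbn1 at -2.12 ± 0.10. Col3a1 was at -1.36 ± 0.08 and Dcn at -1.85 ± 0.16. Collagen IV differed less, with Col4a1 at -0.28 ± 0.05 and Col4a2 at -0.08 ± 0.05 (edgeR adjusted p = 0.155), and Fbln2 was at 0.02 ± 0.08. Col8a1 was at 1.14 ± 0.09 (edgeR adjusted p = 1.49e-06). Cells were thinned to equal depth, so these differences are per UMI and not per cell. Cycling cells were deeper, with medians of 11124, 8369, 14160 and 9386 UMIs before thinning against 7014, 5779, 8282 and 6165. Between 903 and 1257 cells of a library lay within 1 UMI of the upper limit.

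In cells with a high hypoxia score 19 members took a larger share of the UMIs. The score summed 10 oxygen-regulated genes such as Vegfa, Bnip3 and Slc2a1, none of them a member, and put 30.8%, 34.2%, 42.8% and 29.6% of cells in the high and 49.8%, 46.8%, 27.2% and 49.3% in the low group. Of 31 members tested 19 were higher in hypoxia-high cells and 1 lower, against 20.7% and 20.5% of all genes, and the median member difference was 0.27. Col12a1 was higher by 1.08 ± 0.12 (log2 ± SE, edgeR adjusted p = 7.47e-07), Col1a1 by 0.74 ± 0.19, Dcn by 0.74 ± 0.11 and Fbln2 by 0.71 ± 0.05. Loxl2, a known target of hypoxia-inducible factors, was higher by 0.32 ± 0.03. Col8a1 was the member that was lower, at -0.80 ± 0.06 (edgeR adjusted p = 3.36e-09). Sparc (-0.03 ± 0.03), Col4a2 (-0.07 ± 0.04) and Lamb1 (0.01 ± 0.03) did not pass the test. Median depths were 8074, 6654, 9446 and 7049 UMIs in high and 8392, 6904, 10120 and 7439 in low cells, and between 2340 and 3786 cells of a library lay within 1 UMI of the upper limit. All 19 calls rest on the library block, as edgeR without it called 0 of 12163 genes. At an unadjusted p under 0.05 that fit had 6 of 31 members higher and 1 lower, against 647 and 532 of the 12163 genes.

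**Figure D4:**
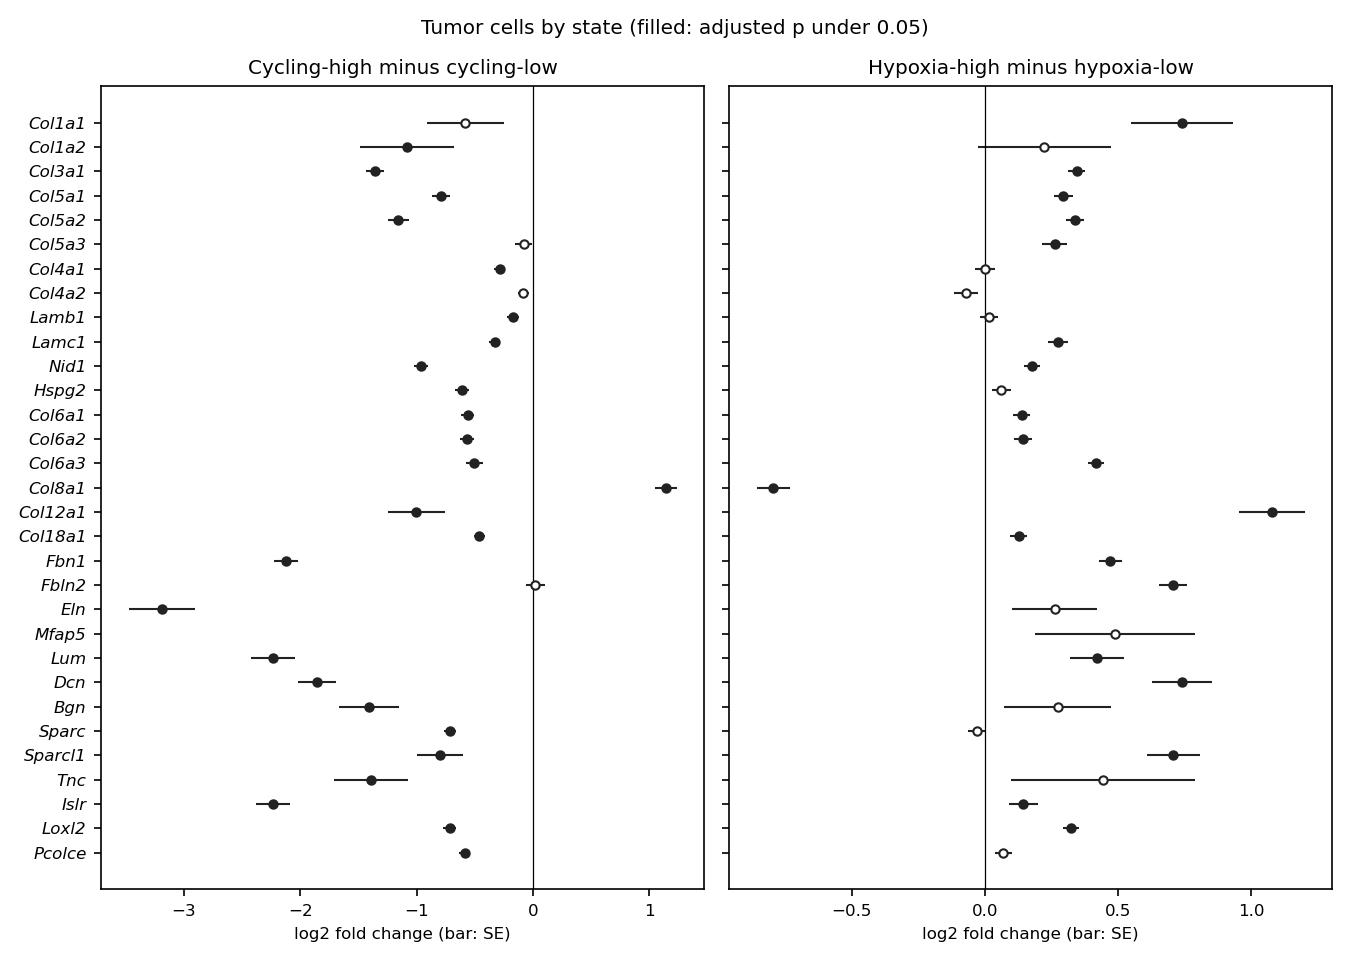
Log2 fold change (± SE) of each member tested between cycling-high and cycling-low (left) and hypoxia-high and hypoxia-low (right) tumor cells, over 4 libraries. Filled points have an edgeR adjusted p under 0.05, and Eln, Islr, Lum and Fbn1 lay below -2 in cycling cells while Col8a1 was higher in cycling and lower in hypoxia-high cells.

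A further 44 matrix genes outside the set were read the same way. Of 34 tested, 29 were lower in cycling cells and 1 higher, against the 34.3% and 28.7% of all genes, with Fn1 (fibronectin) at -2.06 ± 0.14 and the proteoglycan Aspn at -4.96 ± 0.25. In the hypoxia comparison 18 of 36 were higher and 4 lower, against 20.7% and 20.5%, with the collagen prolyl hydroxylase P4ha2 at 1.52 ± 0.09 (edgeR adjusted p = 9.18e-11) and the lysyl hydroxylase Plod2 at 0.77 ± 0.04. Between fibroblasts of the stricter gate and tumor cells 29 of 40 were higher and 1 lower, against 18.6% and 17.9% of all genes. Between the NT and RT tumor cells 5 of 39 read were up and 0 down, or 12.8% against 8.56% of all genes, and 3 of 37 with 10 or more UMIs in NT, against 6.61%. Among them was Vcan (versican) at 71.3, 171, 174 and 143 CPM.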

How the data were processed

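UMI counts per gene and barcode were taken as the authors deposited them, 1 matrix per library, with no normalization. The submitters' processing notes name STAR 2.5.1b, featureCounts of Subread 1.6.4, Cell Ranger and the build GRCm39, without giving their roles. The gene list of RT2 held 18605 genes and that of the other libraries 32285. The deposited barcodes of RT2 differed as well. Their highest mitochondrial share was 11.95%, against 92.61%, 91.46% and 96.96% in NT, RT1 and RT3. The filter used here kept 14993 of the 14994 barcodes of RT2, but 9976 of 10141, 15029 of 15346 and 15060 of 15324 in NT, RT1 and RT3. The part of this difference in the RT2 values was not tested. All matrices were joined on 18596 shared symbols. The members and lists were chosen with earlier results of these data known. Members are named where they lead their role group in the population with the highest level, pass the 1.5-fold rule, or show the largest changes between tumor cell states. Barcodes with fewer than 200 genes or more than 20% mitochondrial UMIs were dropped. No doublet caller was run, and removal of the deepest 8% of barcodes was tried in its place. Counts were summed per library and population and tested with edgeR 4.0.16 in R 4.3.3 (TMM, filterByExpr, quasi-likelihood, library as block, Benjamini-Hochberg over all genes), with 16 sums for populations and 8 for tumor cell states. The score and gate genes were left out of the state fits. DESeq2 1.42.0 was the alternative. The same library gives every population, so the sums are paired by library. The RT libraries are separate replicates by their labels. The block takes up the level of each library. The p-values therefore measure how much the population or state differences varied among the 4 libraries, of which NT pooled 3 tumors. On simulated data for fibroblast minus tumor, with 200 genes changed among 10408, 56% of changes of 1 log2 unit and 84% of 2 were recovered. For endothelial minus tumor, with 10397 genes, 20% and 62% were recovered, and for cycling, with 11994 genes, 76% and 100%. These counts were drawn from a profile common to all populations or states, with a fixed dispersion and no library effect. Only the first gates were simulated, so the rates hold for that setting and the stricter gates were not covered.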

Additional observations from a re-analysis of the deposited data

Results flagged for a closer look

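The direction of the RT and NT libraries differed between populations for several members, with all 3 RT libraries on one side of NT in one population and on the other side in another. These differences were not tested. Against the stricter fibroblasts, tumor cells had mean log2 ratios of 1.43 for Col1a1 (-0.91 in fibroblasts), 3.24 for Col1a2 (-1.06), 0.55 for Col5a2 (-0.15), 1.71 for Eln (-0.61) and 5.29 for Postn (-0.98). The collagen I and Postn levels of tumor cells did not pass the test against leukocytes, and Postn had 0 UMIs in NT tumor cells, so that its ratio depends on the added UMI. The fibroblast ratio of Postn comes from RT2, as the RT values were 1867, 256 and 1865 CPM against 1901 CPM in NT. Without tumor cells that had a UMI of Serping1 or 6 other fibroblast genes the tumor cell ratios were 0.21 for Col1a1 and 1.37 for Col1a2, and with at least 10 Rhox5 UMIs they were 1.07 and 1.63. Without tumor cells that met another marker count these ratios were 1.66 and 2.24. Against the first endothelial gate, tumor cells had ratios of 1.43 for Col1a1 (-2.66 in that gate), 3.24 for Col1a2 (-1.84), 0.60 for Col3a1 (-0.96) and 5.29 for Postn (-1.23). This gate held mural markers at 2233 CPM in NT and 193 CPM in RT2, and their part was not tested. Between the first fibroblast and endothelial gates Col3a1 was at 0.89 and -0.96 and Sparcl1 at -1.05 and 0.28. Col4a1 was at 0.76 in the stricter fibroblasts, on 12 UMIs in NT, and at -0.23 in the stricter endothelial cells.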

How the results depend on the processing

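The number of members up in RT tumor cells was 13 of 34 read. It was 8 of 34 at 2-fold (3.88% of all genes), 7 of 31 with at least 10 Rhox5 UMIs (7.57%), 8 of 30 without tumor cells that met another marker count (7.64%) and 7 of 32 without cells that had a UMI of 7 fibroblast genes from Serping1 to Cxcl12 (8.14%), the latter chosen after seeing the data. In the fibroblast gate 14 of 38 became 8 of 38 at 2-fold (3.86%) and 7 of 34 with 2 UMIs of Pdgfra (5.79%). The stricter gates gave 7 of 33 (14.2%), of which 5 were among the 14. The 1 member down there became 0 at 2-fold, with 50 expected UMIs or with 2 UMIs of Pdgfra, and 5 with the stricter gates. In leukocytes 13 of 21 became 6 of 21 at 2-fold (2.31%), 2 of the 5 read with 50 expected UMIs (6.17%) and 5 of the 12 read with at least 10 UMIs in NT (5.3%), the last chosen after seeing the data. The 1 member up in the endothelial gate became 0 at 2-fold, and 2 without the deepest barcodes or with the stricter gates. The tumor share of member UMIs was 77.4% and became 81.7% with 1 Rhox5 UMI. Members lower in endothelial than tumor cells were 8, but 5 by DESeq2 or without marker-bearing tumor cells and 13 with the stricter gates. Of all genes 27.6%, 22.1%, 25.1% and 24% were lower in these fits. Members higher in endothelial cells than in fibroblasts went from 12 to 5 with the stricter gates, and all genes from 19.2% to 11.6%. Members lower in tumor cells than leukocytes went from 1 to 2 by DESeq2, at 10% mitochondrial UMIs or with no filter on low counts. They were 4 with at least 10 Rhox5 UMIs or without marker-bearing tumor cells, and 6 with the stricter gates and tumor cells free of these 7 genes. Between 31.4% and 38.4% of all genes were lower in these fits. The library is the replicate block. With no replicate block 14 rather than 25 members were lower in cycling cells, where 14% rather than 34.3% of all genes were lower. In hypoxia-high cells 0 rather than 19 members were higher and 0 rather than 1 lower, with 0 of all genes called. In endothelial minus tumor cells 5 rather than 8 members were lower, against 24.4% rather than 27.6% of all genes.

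Leaving out 1 library gave 27 to 34 members higher in fibroblasts than tumor cells (34 to 36 with the stricter gates). Of all genes 11% to 17.1% were higher in these fits (13.6% to 19% stricter). Endothelial minus tumor gave 20 to 22 higher and 5 to 10 lower (11 to 13 and 13 to 13 stricter), with 5 without RT1 or without RT2. The shares of all genes were 17.8% to 21.9% and 19.7% to 23.8% (15.2% to 19.5% and 16.3% to 22.8% stricter). Endothelial minus fibroblast gave 12 to 13 and 19 to 20 (5 to 6 and 25 to 27). The shares of all genes were 14.7% to 17.7% and 14.7% to 17.6% (7.63% to 10.4% and 7.55% to 12%). The state fits gave 24 to 25 and 18 to 20, with 1 to 2 lower in hypoxia-high cells (2 without RT3). Of all genes 29.8% to 31.4% were lower in cycling cells, and 16.8% to 17.9% higher and 16.3% to 18.6% lower in hypoxia-high cells. Tumor minus leukocyte gave 27 to 27 higher (27 to 28 stricter) and 1 to 3 lower (1 to 2 stricter), with 2 without RT1 and 3 without RT2. The shares of all genes were 36.5% to 40.2% (36.3% to 39.2% stricter) and 33.9% to 38.1% (32.9% to 37.4% stricter). The 1.5-fold rule gave 13 to 14 in tumor cells (9.9% to 12.1% of all genes). It gave 15 to 20 up (9.96% to 12.4%) and 1 to 3 down (3.44% to 4.17%) in the fibroblast gate (3 without RT1, 2 without RT3). In the endothelial gate it gave 1 to 2 (2 without RT1, 9.12% to 11.6%) and in leukocytes 13 to 16 (7.44% to 9.1%). As this rule asks for every RT library, leaving 1 out can keep or add calls but not lose them, so these ranges say nothing about stability.

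Sign changes came with the stricter gates. Col5a2 and Col5a3 went to -3.92 and -3.57 in endothelial minus tumor (-3.93 and -3.58 with tumor cells free of these 7 genes). Nid1 and Tnc went to -0.77 and -2.85 in endothelial minus fibroblast (-0.81 and -2.82). The RT ratio of Fbln1 in fibroblasts turned from positive to -0.11, and that of Eln went from 0.94 to -0.61, or -0.18 with the Pdgfra gate. The first gates held tumor and mural RNA, and the cause was not tested further. With 19 NT fibroblasts and 24 NT endothelial cells in the stricter gates, members under 10 expected UMIs could not be read there.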

Other observations

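The genes below lie outside the set and were chosen after their values were seen. Vcan, which encodes the proteoglycan versican, was at 34.4, 178, 121 and 214 CPM in leukocytes of NT, RT1, RT2 and RT3 (mean log2 ratio 2.26 ± 0.42 SD, n = 3). In the stricter fibroblasts it was at 157, 439, 287 and 272 CPM, on 13 UMIs in NT. In those fibroblasts the collagen chaperone Serpinh1 was at 1478 CPM in NT and 513, 849.6 and 722 CPM in RT, and P4ha1, a prolyl hydroxylase subunit that matures collagen, was at 242 CPM in NT and 83.2, 142 and 124 CPM in RT. Gsn, the actin-severing gelsolin, was at 133 CPM in NT and 1432, 2296 and 1841 CPM in RT, and the proteoglycan Prelp at 169.6 CPM in NT and 679, 1099 and 543 CPM in RT. All 4 rest on the 19 NT cells of that gate, with 122, 20, 11 and 14 UMIs of Serpinh1, P4ha1, Gsn and Prelp. Fbln5, a fibulin of elastic fibers, was at 33.1 CPM in NT and 506, 503 and 171 CPM in RT in the stricter endothelial cells, on 4 UMIs in NT and 88, 221 and 13 UMIs in RT.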
